A study of Mus musculus with 13 samples.

Results

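The CDK inhibitors and p53 target genes described here are 10 mouse genes: Cdkn2a, Cdkn2c and Cdkn2d of the INK4 family, Cdkn1a, Cdkn1b and Cdkn1c of the CIP/KIP family, and Btg2, Ccng1, Mdm2 and Perp, which are p53 targets. They were chosen by name, as every array probe whose annotation gives exactly 1 gene symbol among them, and 15 of the 20205 probes met this rule, 10 genes of the 9669 that single symbols named. Of the 15 probes, 14 had a value on at least 1 array. The one without was Perp probe 1. Mdm2 probe 2 had a value on 8 arrays and too few in one pair of RNA sources to be tested, so 13 probes of the 10 genes were tested.

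The study hybridised total RNA from mouse sources named NT1 and TBV together on 13 two-colour arrays, with NT1 in Cy5 on 7 arrays and TBV in Cy5 on 6. In the title of the series NT1 stands next to a Sall4 -/- genotype, and TBV was the other source on each array. The labels name no treatment, cell type or genotype of TBV, and give 1 NT1 and 1 TBV line as far as they tell. The arrays covered NT1p14 with TBVp13 (5 arrays), NT1p12 with TBVp12 (4 arrays), NT1 1 with TBV2 (2 arrays) and NT1p12 with TBVp13 (2 arrays). Passages are taken from the number that follows p. By their labels the first 3 of these pairs shared no source. They were taken as the replicates (n = 3) and are called independent below. NT1 1 and TBV2 carry no passage, so whether their RNA was prepared apart from the others is not known. NT1p12 with TBVp13 drew both of its sources from other pairs and was kept out of the test.

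Progress through the cell cycle is driven by cyclin-dependent kinases (CDKs), and the 6 inhibitors act on them in 2 ways. INK4 proteins bind the CDKs that pair with D-type cyclins and keep the cyclin off, whereas CIP/KIP proteins bind cyclin-CDK complexes, mainly those that start and carry out DNA replication. The transcription factor p53 turns on Cdkn1a, Btg2, Ccng1, Mdm2 and Perp after DNA damage, and Mdm2 in turn marks p53 for degradation. Mouse embryonic stem cells are known for a short G1 phase and low levels of several of these inhibitors, but the labels do not say that NT1 or TBV are such cells.

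The p53 protein binds DNA as 2 adjoining 10-base sites, and 2 of the 10 genes had such a pair of sites in the promoter sequence near an annotated start, which is why these 2 windows are shown. The windows are from RefSeq on GRCm38.p6 and hold 250 bases before and 50 after the start; both are printed 5′ to 3′ on the strand of the gene, with the paired sites in capitals. The Cdkn1a window lies at chr17:29090729-29091028 on the plus strand, its sites at chr17:29090928-29090947, from 51 to 32 bases before the start. The Ccng1 window lies at chr11:40755237-40755536 on the minus strand, its sites at chr11:40755462-40755481, from 195 to 176 bases before the start.
Cdkn1a: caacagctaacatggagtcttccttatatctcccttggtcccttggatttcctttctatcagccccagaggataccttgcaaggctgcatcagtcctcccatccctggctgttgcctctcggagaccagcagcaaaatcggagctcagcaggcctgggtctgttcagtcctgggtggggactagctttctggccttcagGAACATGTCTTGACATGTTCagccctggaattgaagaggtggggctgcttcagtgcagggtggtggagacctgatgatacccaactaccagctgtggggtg
Ccng1: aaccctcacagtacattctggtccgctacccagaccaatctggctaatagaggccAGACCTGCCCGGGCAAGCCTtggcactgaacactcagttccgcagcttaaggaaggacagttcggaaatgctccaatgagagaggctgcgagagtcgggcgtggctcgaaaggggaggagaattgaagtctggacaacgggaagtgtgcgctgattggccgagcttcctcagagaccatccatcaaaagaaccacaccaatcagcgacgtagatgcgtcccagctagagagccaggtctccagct

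The search used the p53 10-base consensus, which reads the same on both strands: purines, then a core with A or T at both inner bases, then pyrimidines. The C and G of the core (CNNG) were required, no gap was allowed between the sites, and at most 1 of the other bases over both sites could differ from the consensus. Each of the 2 pairs had 1 mismatch. Of 32851 mouse promoter windows of this length, 22 (0.067%) held such a pair, against 2 of the 11 windows of the 8 genes that had an entry. Cdkn1c and Perp had no entry, and the other annotated start of Cdkn1a had no pair in its window. The mismatch limit was set after the windows had been read. With 0 mismatches allowed 3 windows (0.00913%) matched, 0 of the 11 among them. With 3 mismatches allowed 453 windows (1.38%) matched, among them 3 of the 11, the added one being that of Cdkn1b. A match is a description of the letters and not a measured binding site.

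All values below are log2 ratios of NT1 over TBV on arrays centred on their medians, so 1 is a 2-fold difference and a positive value means more signal from NT1. They rest on reading the deposited values as Cy5 over Cy3 on a log2 scale, which the sources used here do not state, so the direction of all ratios together is not settled. Across 16317 probes the ratios of NT1p14 with TBVp13 correlated at -0.50 with those of NT1p12 with TBVp12. Some genes of the lists read below passed in both pairs in the fit on single arrays. Of these, Fgf4 (pair means -0.57 and -0.60), Esrrb (-0.25 and -0.48) and Krt18 (0.37 and 0.64) kept their sign. Pcna (0.41 and -0.86) changed sign. The direction of one pair against the other was not tested and is not settled either. Results are therefore also given with the sign of a pair turned. The table holds ratios without signal levels. Many ratios had lost their decimals: 19.3% of all 220028 values and 39 of the 175 values of these genes were whole numbers, and a 0 among them stands for a range of small ratios. From 14314 to 18381 probes had a value per array. The Sall4 probe averaged -0.28 ± 0.33 over the 3 pairs (SD, n = 3; adjusted p = 1.00), and since its place relative to the mutation is not known here, it does not check the labels. In arrays numbered 1 to 5 of NT1p14 with TBVp13, NT1 was in Cy5 on arrays 1, 2 and 4. On the 4 arrays of NT1p12 with TBVp12 it was in Cy5 on arrays 1 and 2, and in the other two pairs on array 1.

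Among the INK4 genes, Cdkn2a had pair means above 0 in all 3 independent pairs, Cdkn2d had pair means on both sides of 0, and Cdkn2c was mostly listed at 0. Cdkn2a encodes the CDK inhibitor p16INK4a and, in another reading frame, p19ARF, which holds Mdm2 away from p53; which transcript its probe reads is not known here. Its 5 arrays of NT1p14 with TBVp13 gave -0.06, 0.0025, 0.28, -0.09 and 0.80. On the 4 arrays of NT1p12 with TBVp12 it gave 0.09, 0.03, 0.59 and 0.35, and on the 2 of NT1 1 with TBV2 -0.0069 and 0.36. All 6 arrays with TBV in Cy5 lay above every array with NT1 in Cy5, including 0.23 against -0.09 in NT1p12 with TBVp13. The pair means of Cdkn2a were 0.25, 0.26 and 0.18, a mean of 0.23 ± 0.05 (SD, n = 3).

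Cdkn2d encodes p19INK4d, which inhibits CDK4 and CDK6. It gave 0.09, 0.30, -0.19, 0.58 and 0.10 on the arrays of NT1p14 with TBVp13. Its ratios were -0.49, -0.35, -0.61 and -0.79 in NT1p12 with TBVp12, below all 5 of the preceding arrays. In NT1 1 with TBV2 the dye orientations lay on opposite sides of 0, at 0.52 and -0.24, as they did in NT1p12 with TBVp13 at 0.11 and -0.48. The mean of Cdkn2d over the 3 pairs was -0.09 ± 0.40 (SD, n = 3). Cdkn2c, which encodes p18INK4c, had whole numbers on 12 of 13 arrays, of which 10 were 0. Its other whole numbers were -1 on array 4 of NT1p14 with TBVp13 and 1 on array 2 of NT1 1 with TBV2, so its mean of 0.11 ± 0.34 (SD, n = 3) rests on the 3 arrays not listed at 0.

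In the CIP/KIP family no gene kept one side of 0 in all 3 pairs. Cdkn1a encodes p21, the inhibitor through which p53 stops the cycle, and it gave 0.20, -0.72, 0.31, 1 and 0 on the arrays of NT1p14 with TBVp13. It gave -0.17, -0.67 and -0.71 on the 3 arrays of NT1p12 with TBVp12 that had a value, and -0.58 and -0.14 in NT1 1 with TBV2. All 5 of these arrays lay below 0, while those of NT1p14 with TBVp13 ranged over both sides and overlapped them through array 2. In NT1p12 with TBVp13 both arrays were listed at 0. The mean of Cdkn1a was -0.26 ± 0.37 (SD, n = 3).

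Cdkn1b encodes p27, which restrains CDK2 in resting cells. Its ratios were 0.03, -0.16, 0.55, -0.02 and 0.94 in NT1p14 with TBVp13, with both high values on the arrays with TBV in Cy5. In NT1p12 with TBVp12 they were -0.21, -0.27, -0.07 and -0.0098, all below 0. In NT1 1 with TBV2 they were -0.18 and 0.08, and the mean over the 3 pairs was 0.05 ± 0.26 (SD, n = 3). Cdkn1c encodes p57, an imprinted inhibitor expressed from the maternal allele. All 5 arrays of NT1p14 with TBVp13 gave Cdkn1c ratios below 0, at -0.01, -0.14, -0.18, -0.64 and -0.54. All 4 of NT1p12 with TBVp12 were above 0, at 0.07, 0.24, 0.17 and 0.46, so the groups of arrays did not overlap. With -0.24 and 0.15 in NT1 1 with TBV2, the mean of Cdkn1c was -0.04 ± 0.27 (SD, n = 3).

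Of the p53 targets, Btg2 had the highest mean and Ccng1 the lowest. Btg2 encodes an antiproliferative protein that speeds the shortening of messenger RNA tails. Btg2 probe 1 gave 0.13, 0.45, 0.78, 0.10 and 1 in NT1p14 with TBVp13, all above 0. It gave -0.05, -0.19, 0.68 and 0.24 in NT1p12 with TBVp12, where only the arrays with TBV in Cy5 were above 0, and 0.06 and 0.14 in NT1 1 with TBV2. Btg2 probe 2 gave 0.0022, 0.64, -0.20, 0.79 and 0.89 in NT1p14 with TBVp13 and -0.04 as the pair mean in NT1 1 with TBV2. The means over pairs were 0.28 ± 0.25 for probe 1 and 0.23 ± 0.24 for probe 2 (SD, n = 3 each), so the probes differed in sign in 1 of the 3 pairs.

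Ccng1 encodes cyclin G1, which recruits a phosphatase to Mdm2. Its probes 2 and 3 gave the same 5 whole numbers in NT1p14 with TBVp13, which were 0, 0, 0, 1 and 1. In NT1p12 with TBVp12, probe 2 gave -0.68, -0.68, -0.59 and -1 and probe 3 gave -0.92, -0.87, -0.28 and -1. In NT1 1 with TBV2, probe 2 gave -0.48 and -0.54 and probe 3 gave -0.53 and -0.58. Every array of the last 2 pairs lay below 0 with both probes. No array of NT1p14 with TBVp13 was listed below 0, but its values at 0 stand for a range of small ratios. Probe 1 of Ccng1 differed from these: it ranged from -0.45 to 0.52 in NT1p14 with TBVp13 and from -0.35 to 0.07 in NT1p12 with TBVp12, and was -0.49 and -0.65 in NT1 1 with TBV2. The means over the 3 pairs were -0.21 ± 0.33, -0.28 ± 0.61 and -0.30 ± 0.63 for probes 1, 2 and 3 (SD, n = 3 each).

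Mdm2 encodes the ubiquitin ligase that keeps p53 low. Mdm2 probe 1 gave -0.12, 0.05, -0.38, -0.31 and -0.26 in NT1p14 with TBVp13, below 0 on 4 of 5 arrays. It gave 0.29, 0.54, -0.07 and 0.25 in NT1p12 with TBVp12, above 0 on 3 of 4, and -0.15 and -0.10 in NT1 1 with TBV2. Its mean was -0.03 ± 0.25 (SD, n = 3), and the 8 values of Mdm2 probe 2 ranged from -0.39 to 0.50. Perp encodes a membrane protein of desmosomes that also takes part in p53-dependent cell death. Perp probe 2 ranged from -0.28 to 1 in NT1p14 with TBVp13 and from -0.37 to 0.51 in NT1p12 with TBVp12, and was -0.27 and -0.29 in NT1 1 with TBV2, for a mean of -0.01 ± 0.25 (SD, n = 3).

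**Figure D1:**
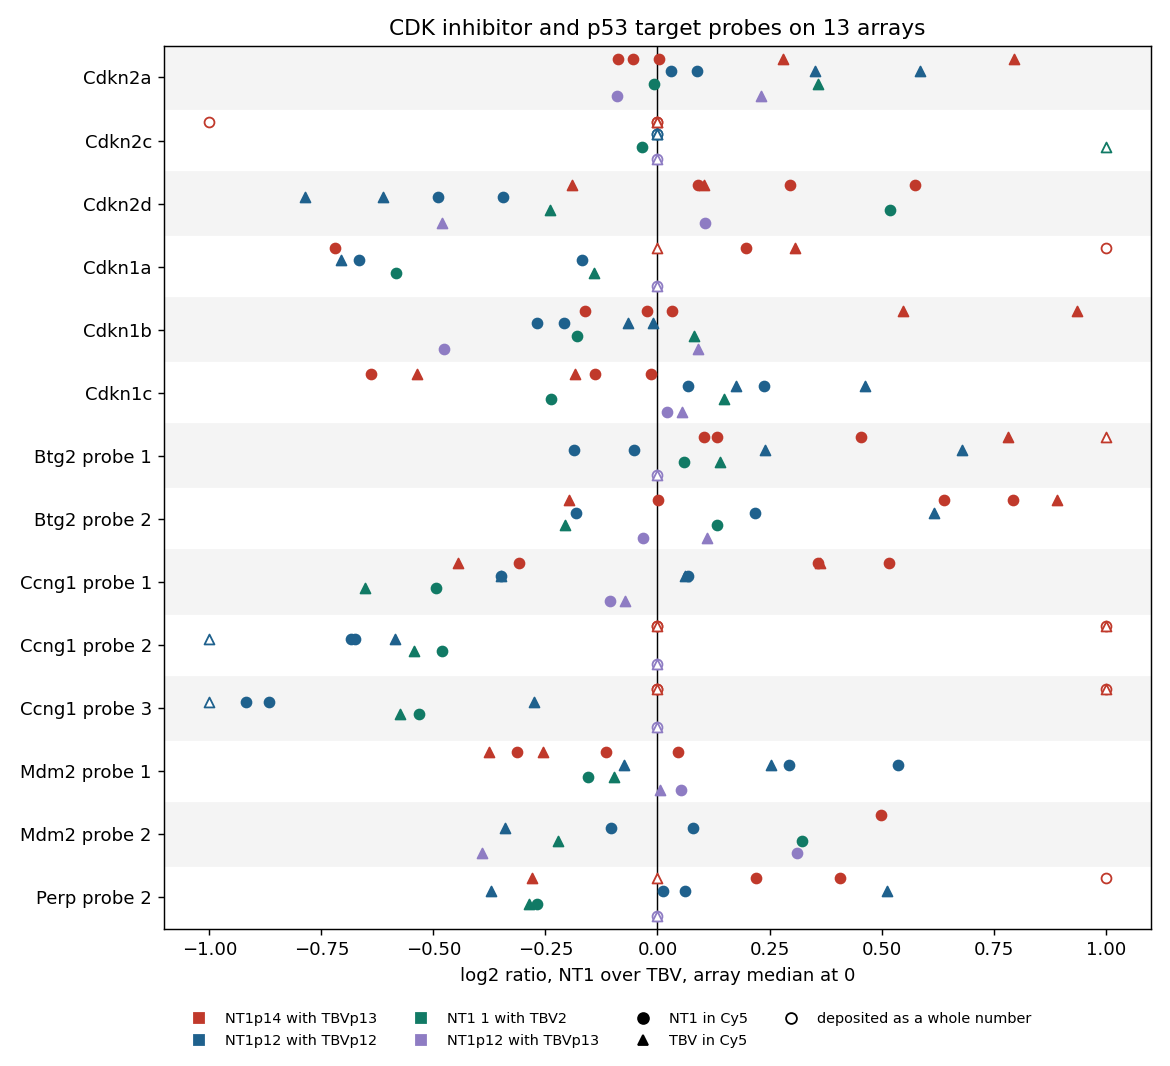
Log2 ratios of NT1 over TBV for the 14 probes with a value on each of the 13 arrays, coloured by source pair, with circles for NT1 in Cy5, triangles for TBV in Cy5 and open marks for whole numbers. Ccng1 probes 2 and 3 sit at 0 and 1 in NT1p14 with TBVp13 and below 0 in NT1p12 with TBVp12 and NT1 1 with TBV2, while the high values of Cdkn2a are on arrays with TBV in Cy5.

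As the plot of single arrays shows, the pairs varied widely: the SD over the 3 pairs exceeded the size of the mean for all tested probes but Cdkn2a and Btg2 probe 1. Whether NT1 differed from TBV was tested with limma on 1 dye-balanced mean per pair (n = 3), two-sided, over 15973 probes. In this test 0 of the 13 member probes passed an adjusted p of 0.05, as did 0% of all probes, and every member's adjusted p was 1.00. At an unadjusted p under 0.05 the counts were 0 of 13 members and 164 (1.03%) of all probes. Cdkn2a and Btg2 probe 1 lay above 0 in all 3 pairs, 2 of 13 probes against 9.05% of all probes, and 0 of 13 lay below 0 in all 3 against 5.33%. The median of the member means was close to that of all genes, at -0.02 over the 10 genes and 0.00048 over 7978 genes. In whole cultures, fewer cells that express a gene and less of its RNA per cell cannot be told apart.

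Turning the sign of a pair changed which genes lay on one side. With NT1p14 with TBVp13 turned, Cdkn1a, Cdkn1b and all 3 Ccng1 probes were below 0 in all 3 pairs, 5 of 13 against 14.3% of all probes. Of the 5 probes below 0, 3 were of 1 gene, and 0 of 13 were above 0 (16.1% of all probes). Turning NT1p12 with TBVp12 instead left Cdkn2d above 0 (18.2% of all probes) and Cdkn1c and Mdm2 probe 1 below 0 (22.7%). When NT1 1 with TBV2 was turned, Btg2 probe 2 and Perp probe 2 were above 0 in all 3 (7.14%) and 0 of 13 below (4.91%). In each of these readings 0 members passed the adjusted threshold.

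The single arrays were then fitted with 1 coefficient per pair and a dye term over 14299 probes, which compares the RNA sources of these pairs and not the lines, since arrays of one pair are technical repeats. Within NT1p14 with TBVp13, Btg2 probe 1 was the 1 of 13 probes that passed, higher in NT1 by 0.54 (SE 0.11, adjusted p = 0.022), where 18.6% of all probes passed. Btg2 probe 2 was at 0.43 (SE 0.18, adjusted p = 0.10). Without array 4 or array 5 of that pair the adjusted p of Btg2 probe 1 was 0.061 or 0.085, and in a fit on that pair's arrays alone it was 0.20. In NT1p12 with TBVp12, 0 of 13 probes passed (0.685% of all probes). The lowest adjusted p there was that of Cdkn2d, at -0.56 (SE 0.11, adjusted p = 0.0504). In the fit over 7304 genes with probes averaged, Cdkn2d passed in that pair (adjusted p = 0.045), as 0.835% of genes did in the lower direction. In NT1 1 with TBV2 and NT1p12 with TBVp13, 0 of 13 passed (0.0210% and 0.00699% of all probes), with 1 and 0 at an unadjusted p under 0.05.

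NT1p14 with TBVp13 and NT1p12 with TBVp12 were compared directly in the same fit, as the difference of their ratios. The signs here follow the dye labels. Cdkn2d and 2 of the 3 Ccng1 probes had higher ratios in NT1p14 with TBVp13, and Cdkn1c and Mdm2 probe 1 lower ones. These were 5 of the 13 probes (3 higher, 2 lower), against 25.5% of all probes, so differences of this kind were common across the array. The ratio of Cdkn2d was higher by 0.69 (SE 0.15, adjusted p = 0.015). Those of Ccng1 probes 2 and 3 were higher by 1.14 (SE 0.25) and 1.18 (SE 0.26), each with an adjusted p of 0.016, while Ccng1 probe 1 differed by 0.23 (adjusted p = 0.45). Cdkn1c was lower by a difference of -0.53 (SE 0.17, adjusted p = 0.041) and Mdm2 probe 1 by -0.47 (SE 0.14, adjusted p = 0.033). With the probes of a gene averaged, Ccng1 was at 0.85 (adjusted p = 0.016), and the call of Mdm2 was lost (-0.22, adjusted p = 0.15). Cdkn1b, at 0.45 (SE 0.15, adjusted p = 0.051), and Cdkn1a, at 0.67 (SE 0.33, adjusted p = 0.15), did not pass. The smallest difference was that of Cdkn2a, at -0.03 (SE 0.14, adjusted p = 0.88).

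**Figure D2:**
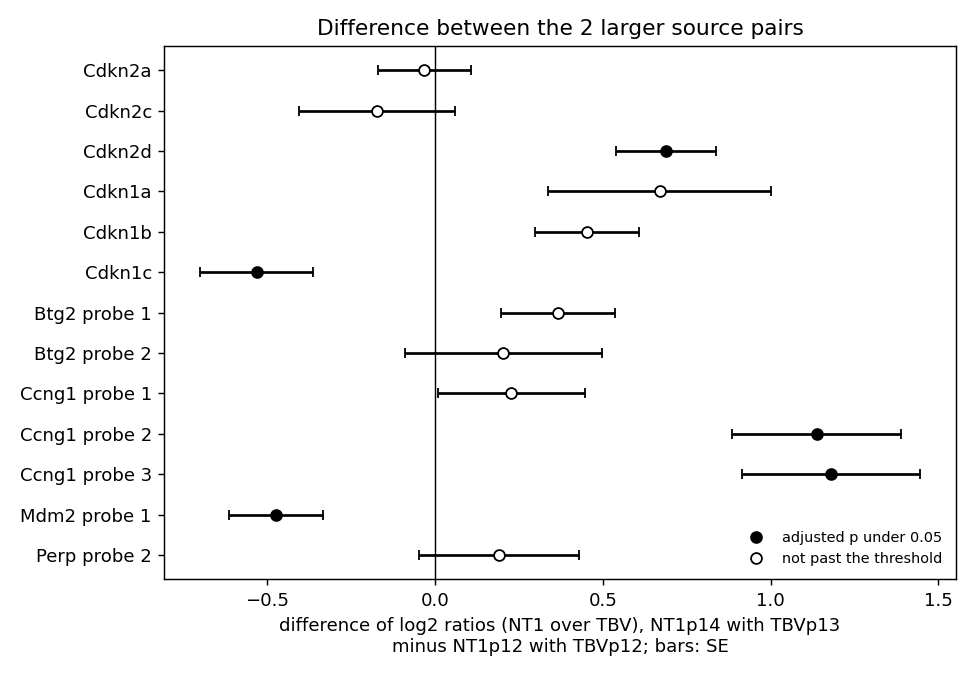
Difference of the log2 NT1 over TBV ratios, NT1p14 with TBVp13 minus NT1p12 with TBVp12, for each tested probe, with bars for the standard error from the fit on 13 arrays and filled marks for an adjusted p under 0.05. Cdkn2d and Ccng1 probes 2 and 3 are above 0 and Cdkn1c and Mdm2 probe 1 below 0 past the adjusted threshold, and Cdkn2a lies near 0.

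As listed, Cdkn2d and Ccng1 probes 2 and 3 were higher on every array of NT1p14 with TBVp13 than on any of NT1p12 with TBVp12. These were 3 of 13 probes, 2 of them of 1 gene, against 7.71% of all probes. Cdkn1c was lower without overlap (1 of 13, against 6.76%). Both Ccng1 probes had only whole numbers in NT1p14 with TBVp13, so whether their unrounded ratios overlapped is not known. Whole numbers made up 8 of 13 values of each of these Ccng1 probes. Every one of the 5 calls depended on single arrays. The call of Cdkn2d was lost without array 1, 2 or 4 of NT1p12 with TBVp12 (adjusted p = 0.053, 0.052 and 0.051). Ccng1 probe 2 was lost without array 2 or 4 of that pair (0.052 and 0.055) and probe 3 without array 1, 2 or 4 (0.054, 0.054 and 0.057). The Cdkn1c call was lost on leaving out 8 of the 13 arrays singly and the Mdm2 probe 1 call on leaving out 6, with adjusted p up to 0.116 and 0.110. Leaving out array 2 of NT1p14 with TBVp13 kept all 5 calls and added Cdkn1a (0.92, adjusted p = 0.039) and Cdkn1b (0.51, adjusted p = 0.045). Cdkn1b also passed among probes with a value on every array (adjusted p = 0.041) and with whole numbers taken as missing (adjusted p = 0.037). With the sign of NT1p14 with TBVp13 turned, 0 of the 13 members passed and 31 probes did in all; Cdkn2d was then at 0.43 (adjusted p = 0.41), Ccng1 probes 2 and 3 at 0.33 and 0.35, and Cdkn1c at 0.06.

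The 2 genes whose promoter windows are printed above, Cdkn1a and Ccng1, had pair means of the same sign: above 0 in NT1p14 with TBVp13 (0.16 for Cdkn1a, 0.07 to 0.42 for the Ccng1 probes), below 0 in NT1p12 with TBVp12 (-0.56, and -0.77 to -0.14) and below 0 in NT1 1 with TBV2 (-0.36, and -0.57 to -0.51). This order of signs was found for 14.3% of all probes, and Cdkn1b had it too (0.35, -0.14 and -0.05). Of the 22 genes with such paired sites in a promoter window, 4 were measured in all 3 pairs. The others, Gtse1 (0.24, 0.06 and -0.19) and Calhm2 (-0.03, -0.15 and 0.07), had other orders of signs. In NT1p12 with TBVp13, Cdkn1a and Ccng1 probes 2 and 3 were at 0. Genes of fibroblasts, cells often used as feeders, had medians on the same sides of 0 as Cdkn1a and Ccng1 in the 3 independent pairs. Over 20 of 30 listed genes that were measured, the array medians ranged from 0.0089 to 0.56 in NT1p14 with TBVp13 and from -0.25 to -0.11 in NT1p12 with TBVp12. They ranged from -0.36 to -0.28 in NT1 1 with TBV2 and from 0 to 0.03 in NT1p12 with TBVp13. On array 2 of NT1p14 with TBVp13 the fibroblast median was 0.56, while Cdkn1a was at -0.72 and Ccng1 probes 2 and 3 were listed at 0. Of these 20 genes, 10 had a higher and 1 a lower ratio in NT1p14 with TBVp13 than in NT1p12 with TBVp12 at an adjusted p under 0.05. The shares of all genes were 13.1% and 10.7%. Pluripotency genes (18 of 30 measured) had pair medians of 0.10, -0.49 and -0.09, with 8 of 18 higher and 0 lower in the same difference. Ribosomal protein genes (38 of 47 measured) had pair medians of 0.42, -0.44 and 0.10, with 20 of 35 higher and 2 lower. Of the 18 pluripotency genes, 1 lay above 0 and 7 below 0 in all 3 pairs, against 8.86% and 5.72% of all genes. The part of these markers in the ratios of Cdkn1a and Ccng1 was not tested.

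**Figure D3:**
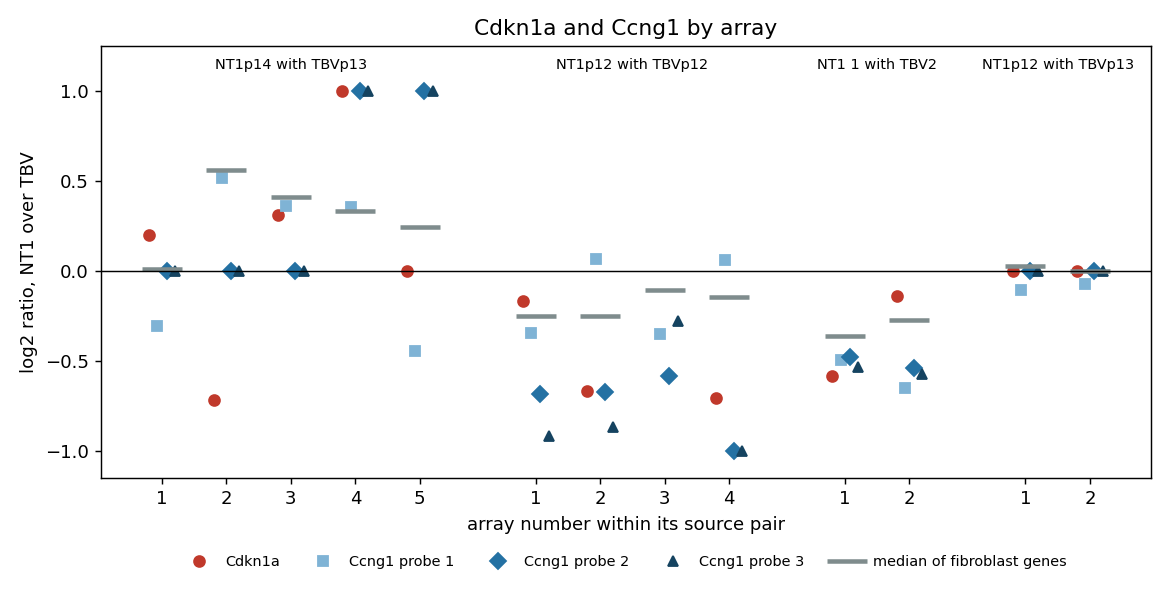
Log2 ratios of NT1 over TBV for Cdkn1a and the 3 Ccng1 probes on each array, by source pair, with the median of 20 fibroblast genes on the same arrays. Cdkn1a and Ccng1 probes 2 and 3 are below 0 on every array with a value in NT1p12 with TBVp12 and NT1 1 with TBV2, where the fibroblast medians are also below 0. On array 2 of NT1p14 with TBVp13 Cdkn1a is below 0 and the fibroblast median above 0.

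The dye orientation moved some members as much as the source pair did. The dye term of the fit, which is the part of a ratio that follows Cy5 over Cy3 whichever source it holds, passed for 2 of 13 probes, against 5.75% of all probes. It was -0.23 for Cdkn2a (SE 0.06, adjusted p = 0.046) and -0.24 for Cdkn1b (SE 0.06, adjusted p = 0.049). On arrays with TBV in Cy5 alone the mean of Cdkn2a over the 3 pairs was 0.46, and with NT1 in Cy5 alone it was 0.0017. Both dye calls were lost on leaving out any one of the 13 arrays, at adjusted p from 0.054 to 0.104 for Cdkn2a and from 0.061 to 0.099 for Cdkn1b. The balanced means given above cancel this term.

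**Figure D4:**
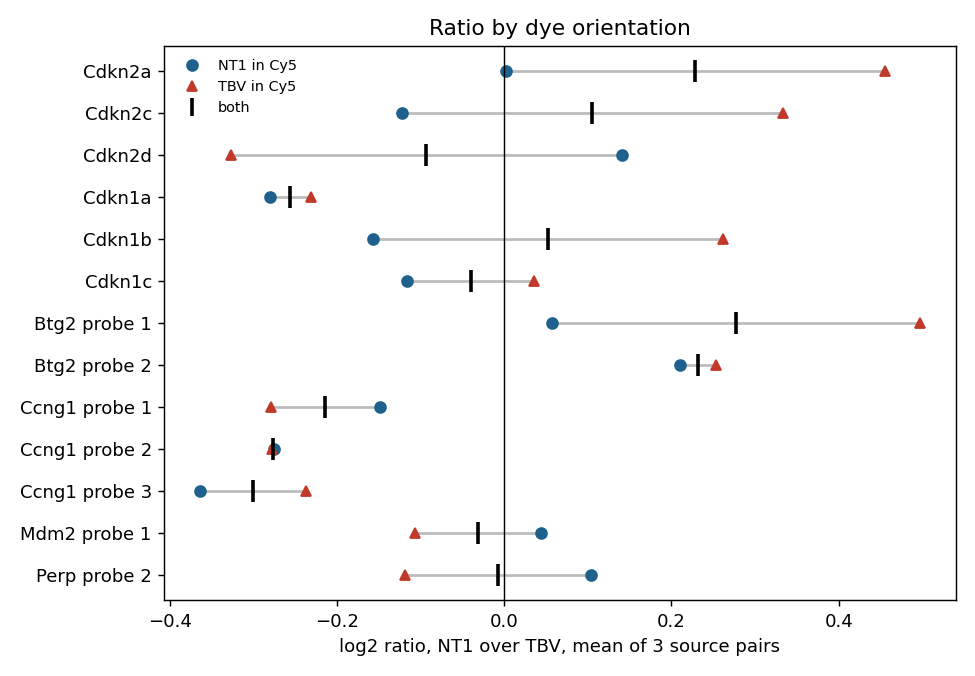
Mean log2 ratio of NT1 over TBV over the 3 source pairs for each tested probe, from arrays with NT1 in Cy5 alone (circles) and with TBV in Cy5 alone (triangles), with the balanced mean as a bar. Cdkn2a is at 0.0017 with NT1 in Cy5 and at 0.46 with TBV in Cy5.

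Other genes of the same pathways were read from lists, with probes of a gene averaged. In the test over 3 pairs 0 genes of any list passed, as did 0 of 7978 genes (90 at an unadjusted p under 0.05, 0 of them in the 4 pathway lists). Of 60 other p53 targets 24 were measured, 2 above 0 in all 3 pairs and 3 below, against 8.86% and 5.72% of all genes. Those with the largest means were Ptpn14, a phosphatase (0.27 ± 0.19), Sfn, which encodes 14-3-3 sigma (0.22 ± 0.07), and Tigar, a regulator of glycolysis (-0.08 ± 0.06; SD, n = 3 each). Between the same pairs of sources as above, Plk2 (difference 1.69, adjusted p = 0.040) and Ptprv (1.14, adjusted p = 0.015) were higher. Gadd45b (-0.52, adjusted p = 0.038) was lower. These were 2 of 22 genes higher and 1 lower, against 13.1% and 10.7% of all genes. Whole numbers made up 9 of 13 values of Plk2, 4 of 13 of Ptprv and 0 of 26 of Gadd45b. Genes named here by their difference were chosen after their values were seen. The pair medians of this list were -0.01, -0.0059 and -0.02, against 0.18, 0.03 and -0.04 for the 10 member genes and 0.03, 0.0079 and -0.0073 for all genes.

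Of 35 regulators of p53, 20 were measured. Of these, 4 were above 0 and 0 below 0 in all 3 pairs, against 8.86% and 5.72% of all genes. The 4 included the phosphatase Ppm1d (0.31 ± 0.14), the deacetylase Hdac1 (0.11 ± 0.11) and the deubiquitinase Usp7 (0.10 ± 0.13). Mdm4, the partner of Mdm2, was at 0.17 ± 0.22 (SD, n = 3 each). Trp53, which encodes p53, had no value in all 3 pairs. Ncl (1.60, adjusted p = 0.011), Npm1 (1.84, adjusted p = 0.014) and Crebbp (0.88, adjusted p = 0.031) were higher in the difference between pairs. Daxx (-1.56, adjusted p = 0.013) was lower. These were 3 of 17 genes higher and 1 lower, against 13.1% and 10.7% of all genes. Whole numbers made up 11 of 13 values of Ncl, 22 of 26 of Npm1, 11 of 13 of Daxx and 4 of 13 of Crebbp.

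Among cyclins, CDKs and genes of the retinoblastoma-E2F pathway 28 of 42 were measured. In all 3 pairs 2 lay above 0 and 1 below 0, against 8.86% and 5.72% of all genes. Ccne1, the cyclin that starts replication with CDK2, was at -0.26 ± 0.13, Mnat1, of the CDK-activating kinase, at 0.16 ± 0.15, and Rb1, the retinoblastoma gene, at 0.15 ± 0.10 (SD, n = 3 each). In the difference between pairs 8 of 26 were higher, against 13.1% of all genes. Lower was 1 gene, against 10.7% (E2f2, -0.73, adjusted p = 0.023). The 8 included Cdk1 (0.82, adjusted p = 0.037) and Cks1b (1.35, adjusted p = 0.016). Whole numbers made up 4 of 13 values of Cdk1, 8 of 13 of Cks1b and 6 of 29 of E2f2. The pair medians of this list were 0.34, -0.20 and 0.02. Of other CDK inhibitors and their regulators 19 of 29 were measured. Here too 2 lay above 0 and 1 below 0 in all 3 pairs, against 8.86% and 5.72% of all genes. These genes were Klf6 (0.49 ± 0.62), Smad4 (0.18 ± 0.13) and Klf4 (-0.32 ± 0.18; SD, n = 3 each). Cdkn2b, the neighbour of Cdkn2a, had no value in all 3 pairs. Pcna (1.28, adjusted p = 0.011), the replication clamp that p21 binds, and Sp1 (0.95, adjusted p = 0.019) were higher in the difference. Bmi1 (-0.86, adjusted p = 0.028) and Smad3 (-0.47, adjusted p = 0.038) were lower. These were 2 of 18 genes higher and 2 lower, against 13.1% and 10.7% of all genes. Whole numbers made up 11 of 26 values of Pcna, 8 of 13 of Sp1, 3 of 25 of Smad3 and 0 of 13 of Bmi1.

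**Figure D5:**
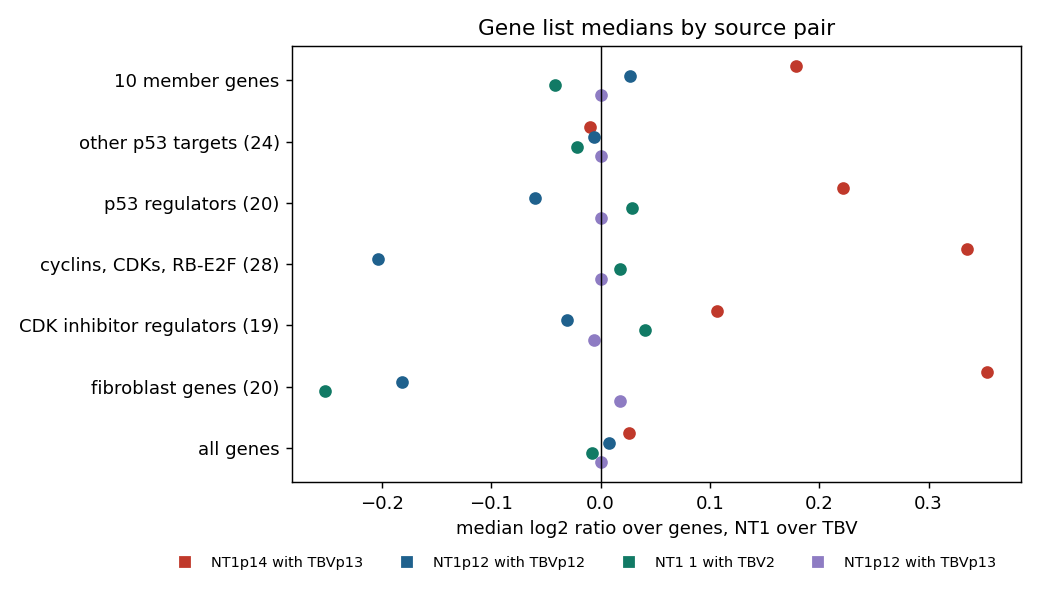
Median log2 ratio of NT1 over TBV of each gene list in each source pair, with the 10 member genes and all genes for comparison. The numbers beside the names are measured genes. The cyclin and CDK list and the fibroblast list are above 0 in NT1p14 with TBVp13 and below 0 in NT1p12 with TBVp12, while the other p53 targets lie near 0.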

How the data were processed

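The deposited table holds 1 value per probe and array. The deposited values were taken to be the authors' log2 channel ratios; log base, numerator and normalisation are not given in the sources used here, and log2 was taken because the largest size, 15, lies below the log2 range of a 16-bit scanner (16) and above its natural log (11.1). Per the labels, the sign was turned on arrays with TBV in Cy5.

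Each array was centred on its median, and the 2 dye orientations of a source pair were averaged with equal weight. The 3 independent pairs were tested against 0 in limma 3.58.1 (lmFit, then eBayes; R 4.3.3), two-sided, with Benjamini-Hochberg adjustment over 15973 probes and a threshold of 0.05. The 13 arrays were also fitted singly with 1 coefficient per pair and a dye term over 14299 probes with a value in both orientations of each pair. The p-values measure the spread between preparations or arrays, and the number of arrays limits the precision. Promoters were searched in Python 3.11.15 and figures drawn with matplotlib 3.10.9.

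Of the probes, 11723 had 1 gene symbol in the platform annotation, 806 several and 7676 none. The members, lists and tests were chosen with earlier results of these data known. Genes named by rule are the 10 members with every probe, Trp53, Mdm4, Rb1 and Cdkn2b, and 3 genes of each pathway list. These 3 had the largest mean among those with 1 sign in all 3 pairs. Genes of any list named by their difference between pairs were chosen after their values were seen. Marker lists of trophoblast (5 of 18 measured; pair medians 0.15, 0.44 and 0.09) and extraembryonic endoderm (12 of 20; 0.10, -0.02 and -0.07) were also read. Alternatives covered the replicate unit, dye orientation, direction, centring, scaling, filters, moderation, whole numbers and leaving out pairs or arrays.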

Additional observations from a re-analysis of the deposited data

Results flagged for a closer look

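Cdkn2c was at -1 on array 4 of NT1p14 with TBVp13 and at 0 on the other 4 arrays of that pair, and all 5 were whole numbers. It was 1 distant array in 23 groups of arrays tested. With the decimals lost, 4 values at 0 and 1 at -1 passed the cut-off whatever the unrounded ratios were. The rate of about 1 in 20 by chance does not hold for such values.

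For 5 probes the ratio of NT1 over TBV in NT1p14 with TBVp13 differed from that in NT1p12 with TBVp12, by a test of the difference on single arrays. The differences were 0.69 for Cdkn2d, -0.53 for Cdkn1c, 1.14 for Ccng1 probe 2, 1.18 for Ccng1 probe 3 and -0.47 for Mdm2 probe 1. Of all probes, 25.5% differed by the same test, and with the sign of the first of these pairs turned 0 of the 5 did. Passage, RNA preparation and the direction of a pair cannot be told apart here.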

How the results depend on the processing

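Leaving out single arrays or pairs left 0 probes past the threshold for NT1 over TBV. By the fit on 13 arrays with the pair as a random block 3 probes passed, with all arrays taken as independent 10, and with centring on ribosomal protein genes 1. Leaving out single arrays gave 15 to 3728 probes within NT1p14 with TBVp13, 0 to 388 within NT1p12 with TBVp12, 3 to 10 within NT1 1 with TBV2, 0 to 49 within NT1p12 with TBVp13, 0 to 649 for the dye and 599 to 4490 for the difference. With the arrays concerned alone the counts were 0 within NT1p14 with TBVp13, 0 within NT1p12 with TBVp12, 0 for the dye and 1410 for the difference. With whole numbers taken as missing they were 1700 within NT1p14 with TBVp13, 0 within NT1 1 with TBV2, 0 within NT1p12 with TBVp13, 1573 for the dye and 2264 for the difference. Turning NT1p14 with TBVp13, chosen after seeing the data, gave 31 for the difference, with Cdkn1c at 0.058 and Cdkn1b at -0.18. The causes were not tested.

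Mean ratios that changed sign were the following. With 4 pairs Cdkn1b was at -0.0089. Perp probe 2 was at 0.095 with the random block and 0.067 with independent arrays. On arrays with NT1 in Cy5 alone Cdkn2c was at -0.12, Cdkn2d at 0.14, Cdkn1b at -0.16, Mdm2 probe 1 at 0.044 and Perp probe 2 at 0.10, and with TBV in Cy5 alone Cdkn1c was at 0.036. With NT1p14 with TBVp13 turned, Cdkn1b was at -0.18, Cdkn1c at 0.17, Btg2 at -0.097 and -0.044 and Mdm2 probe 1 at 0.12. With NT1p12 with TBVp12 turned, Cdkn2d was at 0.28, Cdkn1a at 0.12 and Ccng1 probes 2 and 3 at 0.21. With NT1 1 with TBV2 turned, Cdkn2c was at -0.22, the Ccng1 probes at 0.17, 0.064 and 0.068, Mdm2 probe 1 at 0.052 and Perp probe 2 at 0.18. On leaving out arrays or pairs, Cdkn2c ranged from -0.083 to 0.28, Cdkn2d from -0.22 to 0.14, Cdkn1b from -0.094 to 0.15, Cdkn1c from -0.18 to 0.095, Mdm2 probe 1 from -0.17 to 0.063 and Perp probe 2 from -0.11 to 0.13.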
